A study of Rattus norvegicus with 6 samples.

Results

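MiR-21 is made as a single hairpin from which 2 mature strands are cut: rno-miR-21-5p, the guide strand, and rno-miR-21-3p, the passenger strand. These 2 of the 758 miRNAs on the array are described here. They were chosen by name, from all non-control spots that carry either name, and 6 of the 1806 probes measure them, 2 for the guide and 4 for the passenger. The samples were left ventricular myocardium of male rats aged 8 weeks, each on its own Cy3 single-colour Agilent array. In the control group (3 samples, labelled 0 h) the chest was opened and closed without tying the artery, and in the infarction group (MI, 3 samples) the left coronary artery was ligated and tissue was taken 24 h later from rats in which the infarct had been verified. Because controls are labelled 0 h, the effect of ligation and the time since surgery cannot be told apart. The strain, the position of the tissue piece relative to the infarct and the animal behind each sample are not given in the sources used here, so a p-value here reflects only how much these samples varied, which may be technical variation.

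A primary miRNA transcript is cut in the nucleus and again in the cytoplasm to a short duplex, and 1 strand of the duplex is loaded into an Argonaute protein while the other is usually degraded. The loaded strand finds messenger RNAs mainly through its seed, bases 2 to 8. In heart, miR-21-5p is best known from cardiac fibroblasts and from tissue injured by infarction or pressure overload, and its known targets include Pdcd4 and the Spry1 inhibitor of ERK signalling. MiR-21-3p has been described in vesicles released by cardiac fibroblasts and taken up by cardiomyocytes.

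The hairpin and both mature strands are shown because the array reads the strands through separate probes, so that the seed and the rest of each strand define what was measured. The sequences are those of RefSeq on build GRCr8, where the hairpin (gene Mir21) lies on the minus strand at chr10:71902600-71902691 with Tubd1 and Vmp1 as its neighbours and 0 annotated genes overlapping it. In the hairpin the mature strands are in capitals, at bases 18 to 39 and 56 to 77 of 92, with 16 bases between them. In the mature strands, each 22 bases long, the seed is in capitals.
Mir21 hairpin: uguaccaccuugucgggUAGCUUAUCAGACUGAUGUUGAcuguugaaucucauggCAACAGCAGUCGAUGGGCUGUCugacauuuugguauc
rno-miR-21-5p: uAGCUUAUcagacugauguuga
rno-miR-21-3p: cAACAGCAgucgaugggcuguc
The seeds differ, and among the mature rat miRNAs of the RefSeq table no other holds either seed.

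Signals are given as log2 scaled signal, the log2 of a strand's summed probe signals with every array brought to a common 75th percentile, taken over probes that were detected throughout. The guide strand rno-miR-21-5p stood at 13.66, 13.52 and 13.67 in the controls, in the order of their replicate numbers, and at 14.74, 14.66 and 14.55 after MI. The groups did not overlap, and the 3 arrays of each group lay close together, with control replicate 2 lowest of all and MI replicate 1 highest. The group means were 13.62 ± 0.08 (SD, n = 3) and 14.65 ± 0.10 (SD, n = 3). MiR-21-5p rose 2.04-fold after MI (95% interval 1.78 to 2.35), a log2 difference of 1.03 ± 0.08 (SE; limma with Benjamini-Hochberg adjustment over 449 tested miRNAs, adjusted p = 0.00209). In bulk tissue, more cells that hold a miRNA and more of it per cell cannot be told apart.

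The passenger strand rno-miR-21-3p stood at 5.33, 4.98 and 5.56 in the controls and at 7.17, 7.60 and 7.10 after MI, in the same order. Again the groups did not overlap, with control replicate 2 lowest, but here MI replicate 2 was the highest array. The group means were 5.29 ± 0.29 (SD, n = 3) and 7.29 ± 0.27 (SD, n = 3), with larger SDs than those of the guide strand in both groups. MiR-21-3p rose 4.00-fold (95% interval 2.92 to 5.48), a log2 difference of 2.00 ± 0.19 (SE; limma adjusted p = 0.00356). This call was lost with the array code as a block (limma adjusted p = 0.0626), with no detection filter (0.0543) and with the replicate number as a block. Relative to the control mean, the MI arrays were at 3.68-fold, 4.96-fold and 3.52-fold for the passenger and at 2.18-fold, 2.05-fold and 1.91-fold for the guide. The exact two-sided permutation test over samples gave p = 0.1 for either strand, the smallest p that 3 against 3 samples allow.

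**Figure D1:**
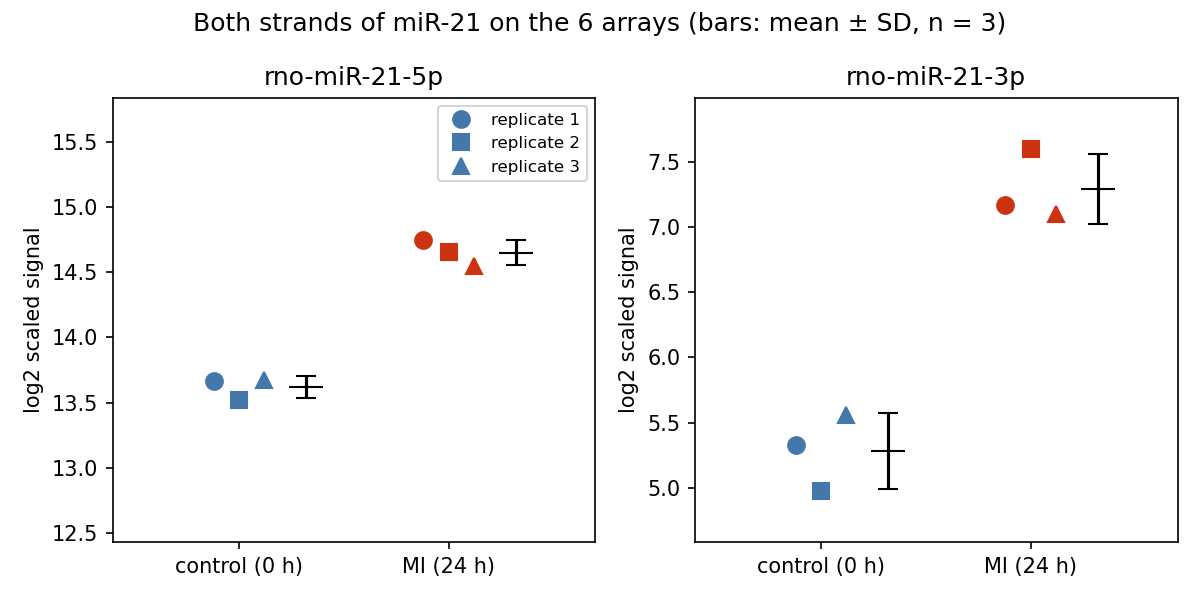
Log2 scaled signal (vertical axes, both spanning the same number of log2 units) of rno-miR-21-5p, left, and rno-miR-21-3p, right, on the 3 control and 3 MI arrays; marker shape gives the replicate, and the black bars are the group mean ± SD (n = 3). MI arrays lie above all control arrays in both panels, from 14.55 to 14.74 for the guide and from 7.10 to 7.60 for the passenger.

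Both members were called higher, against 8 of the 449 tested miRNAs (1.78%), and a group of MI arrays lying wholly above the controls was seen for 49 miRNAs (10.9%). In the same fit 3 miRNAs were lower, and the median change over all tested miRNAs was 0.02. By size of the upward change miR-21-3p was 1st and miR-21-5p 5th of the 449. The first place depended on the background treatment: under normexp, a model-based correction, with an offset of 50 miR-21-3p stood at 0.56, below miR-146b-5p, miR-223-3p (1.38) and miR-21-5p (1.01). With no offset it stood at 1.40, below miR-146b-5p at 1.72 and miR-223-3p at 1.43. In the authors' deposited values it stood at 2.24, below miR-222-5p at 4.13. Heart muscle miRNAs were present as the tissue label implies: all 7 of the cardiomyocyte list (miR-1, miR-133, miR-208 and miR-499 strands) were detected on all 6 arrays. The scaling signal (the 75th percentile) ran from 469 to 543 over the arrays, and 0 spots were saturated.

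**Figure D2:**
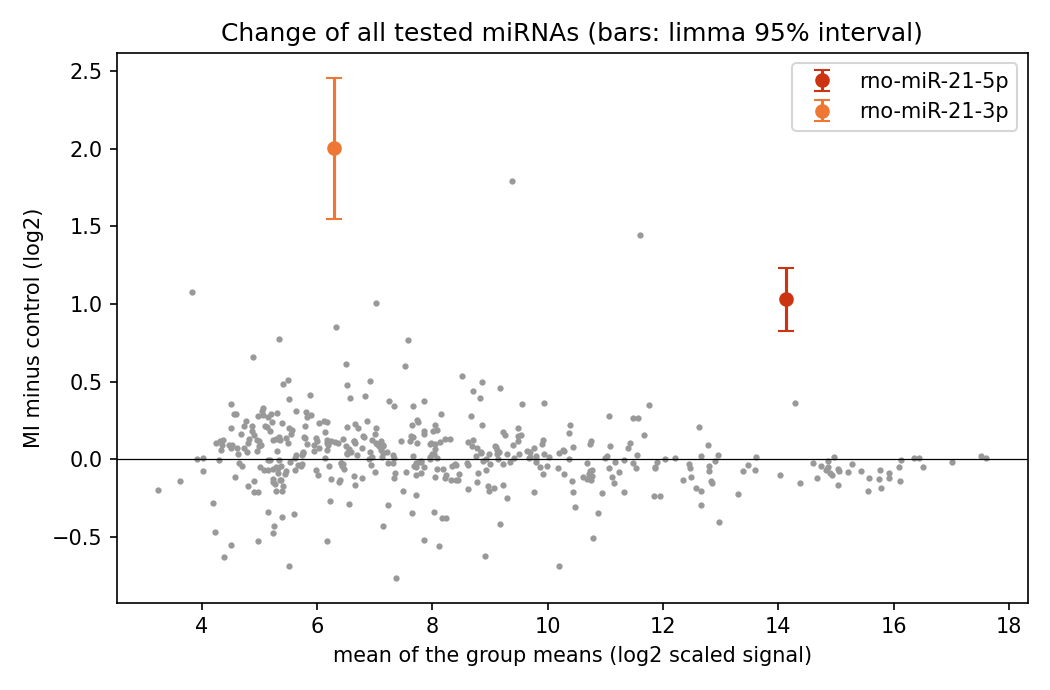
Change after MI (vertical axis, log2, MI minus control) against the mean of the 2 group means (horizontal axis, log2 scaled signal) for the 449 tested miRNAs, grey, with both miR-21 strands in colour and limma's 95% interval. MiR-21-3p lies at 2.00 and miR-21-5p at 1.03, while the median of all miRNAs is 0.02.

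Each strand was read by several probes, which share a target and are not replicates of the condition. For the guide, probe A_26_P00001210 gave scaled signals of 7261, 6667 and 7312 in controls and 14927, 13995 and 13022 after MI. The other guide probe, A_26_P00001211, gave 5720, 5110 and 5739 in controls and 12522, 11832 and 10961 after MI. Both thus kept the order of the arrays seen in the sum, with MI replicate 1 highest, and rose by 0.98 ± 0.08 and 1.09 ± 0.09 on the log2 scale (SE; limma adjusted p = 0.00172 and 0.00147 over 926 tested probes). Each had 8 spots per array, of which 4 to 8 were used after outlier spots were left out, and those spots varied by 0.860% to 4.76% (CV) within an array.

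The passenger probes were far closer to background. The brightest, A_26_P00002013, was well above background on all 6 arrays, with scaled signals of 19.2, 14.0 and 22.9 in controls and 71.9, 98.4 and 67.0 after MI. This probe alone gave a log2 difference of 2.09 ± 0.22 (SE; limma adjusted p = 0.00472). It is the largest part of the summed strand, so its likeness to the sum is partly built in. The summed signals in controls were 40.1, 31.5 and 47.1, so much of each came from the dimmer probes. A_26_P00002012, well above background on 1 control array (replicate 3) and all MI arrays, gave 10.6, 8.92 and 12.5 in controls and 43.1, 56.1 and 40.9 after MI, a fitted difference of 2.13 ± 0.17 (SE) that rests on control arrays partly below detection. In both probes MI replicate 2 was the highest array, as in the sum, which they largely make up.

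The remaining passenger probes were well above background on 0 of 3 control arrays, so their change has only a bound. These probes and A_26_P00002012 entered the test only through the MI arrays, where they are high, so nothing is read from their calls. A_26_P00002011 gave 4.35, 4.10 and 5.36 in controls and 16.6, 21.5 and 15.7 after MI, at least 1.87-fold higher after MI. A_26_P00002010 gave 5.91, 4.53 and 6.34 in controls and 12.2, 17.6 and 13.8 after MI, at least 1.51-fold higher. Each bound sets the MI mean against, for each control array, the higher of the probe's own signal and the lowest signal of any probe detected there. The group means of the log2 signal were 2.38 and 4.15 for A_26_P00002011 and 2.53 and 3.84 for A_26_P00002010. They were taken after signals below the floor of 5.14 were raised to it, on 2 and 1 control arrays. Even so, all control signals of these probes lay at least 2.22 times above the 95th percentile of the negative control spots of the same array, which ran from 1.83 to 1.90 on the control arrays. Each passenger probe had 4 spots per array, with a CV between 1.14% and 41.7%, the highest on a control array.

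Over all probes, 16 of 926 tested (1.73%) were called higher. Both guide probes and A_26_P00002013, the 3 probes of miR-21 that were well above background on all 6 arrays, were among them. With the arrays of code 1 alone (described below), A_26_P00002013 was no longer called (limma adjusted p = 0.0743).

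**Figure D3:**
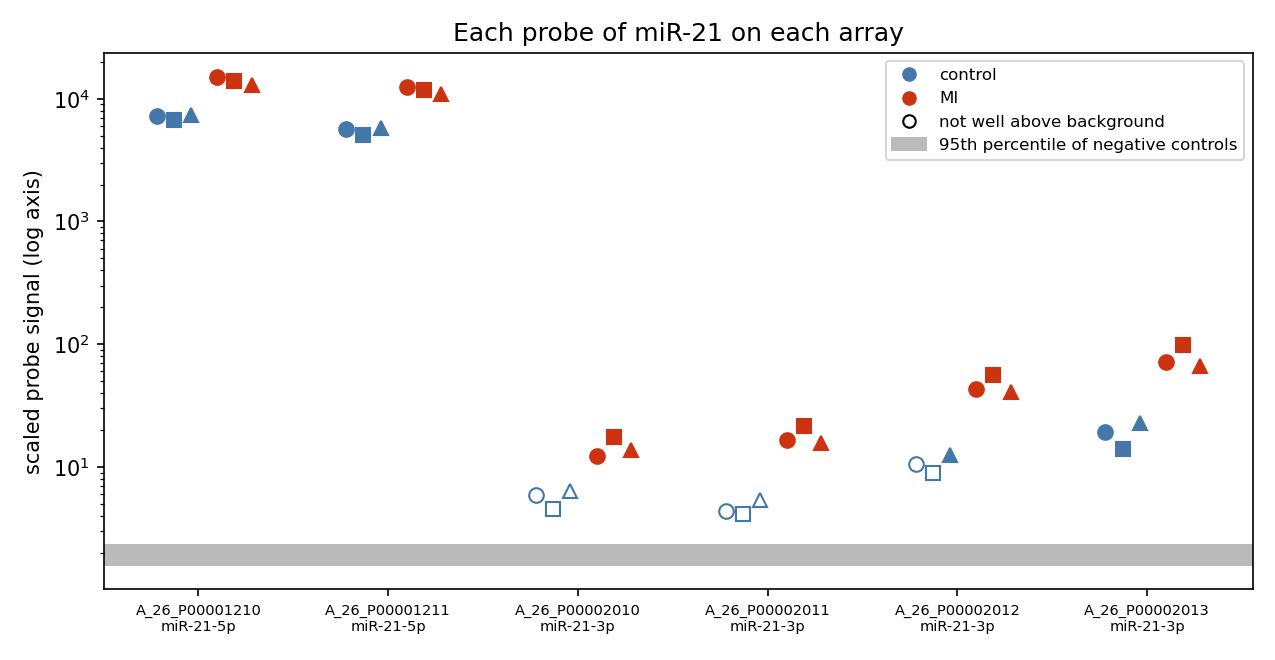
Scaled signal (vertical axis, log scale) of each probe of miR-21 on each array, blue for control and red for MI, with marker shape giving the replicate (circle 1, square 2, triangle 3) and open markers where the probe was not well above background. The grey band spans the 95th percentiles of the negative control spots, 1.60 to 2.31; the guide probes lie between 5110 and 14927 and the passenger probes between 4.10 and 98.4.

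Levels of different probes cannot be set against each other, but the ratio of the strands can be compared between groups. The log2 ratio of 3p to 5p was -8.34, -8.55 and -8.12 in the controls and -7.58, -7.06 and -7.45 after MI. The groups did not overlap, which was also so for many of the other pairs, even miR-448 and miR-505 with changes of 0.04 and -0.04. The ratio was 1.96-fold higher after MI, a log2 difference of 0.97 ± 0.17 (SE; 95% interval 0.54 to 1.40). In limma over 114 miRNA names with both strands tested, the adjusted p was 0.0501, which just missed the threshold, and the exact permutation p was 0.1, the smallest possible. In that fit 0 of the 114 pairs (0%) passed, with 17 at an unadjusted p under 0.05. MiR-21 had the largest upward change of the 114 pairs. The direction depends on 3p being set over 5p, and miR-222 changed farther downward, at -1.04 (limma adjusted p = 0.164). MiR-490, miR-18a and miR-342 had the same adjusted p as miR-21 and, like miR-222, were named after their values were seen.

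**Figure D4:**
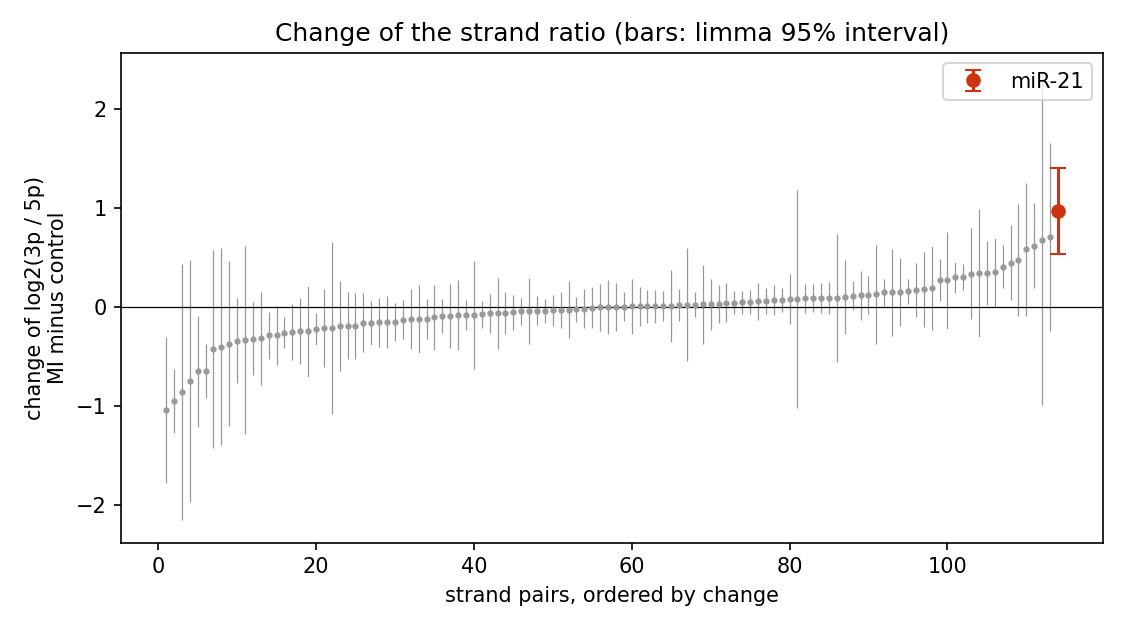
Change of the log2 ratio of 3p to 5p after MI (vertical axis) for 114 strand pairs ordered from lowest to highest (horizontal axis), with limma's 95% interval. MiR-21, in red at the right end, stands at 0.97 with an interval from 0.54 to 1.40.

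The strand ratio depended on how background was treated, whereas the guide's change did not. With normexp background correction and an offset of 50, the log2 difference of miR-21-5p was 1.01 and that of miR-21-3p 0.56, and the ratio turned to -0.45 (limma adjusted p = 0.0234). The mean of miR-21-3p in controls was then 8.07, against 6.18 with normexp and no offset and 5.29 as reported. Adding an offset shrinks the log2 change of a dim strand more than that of a bright one. Among the alternatives the sign turned only where this offset was added, so the turn is not read as a change of the strands. With normexp and no offset the differences were 1.03, 1.40 and, for the ratio, 0.38 (limma adjusted p = 0.171). Subtracting each array's median negative control signal gave 1.03, 1.88 and 0.85. The rise of both strands was past the threshold in all of these fits (limma adjusted p from 0.000816 to 0.00272), but the larger change of the passenger was not seen under normexp with the offset.

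**Figure D5:**
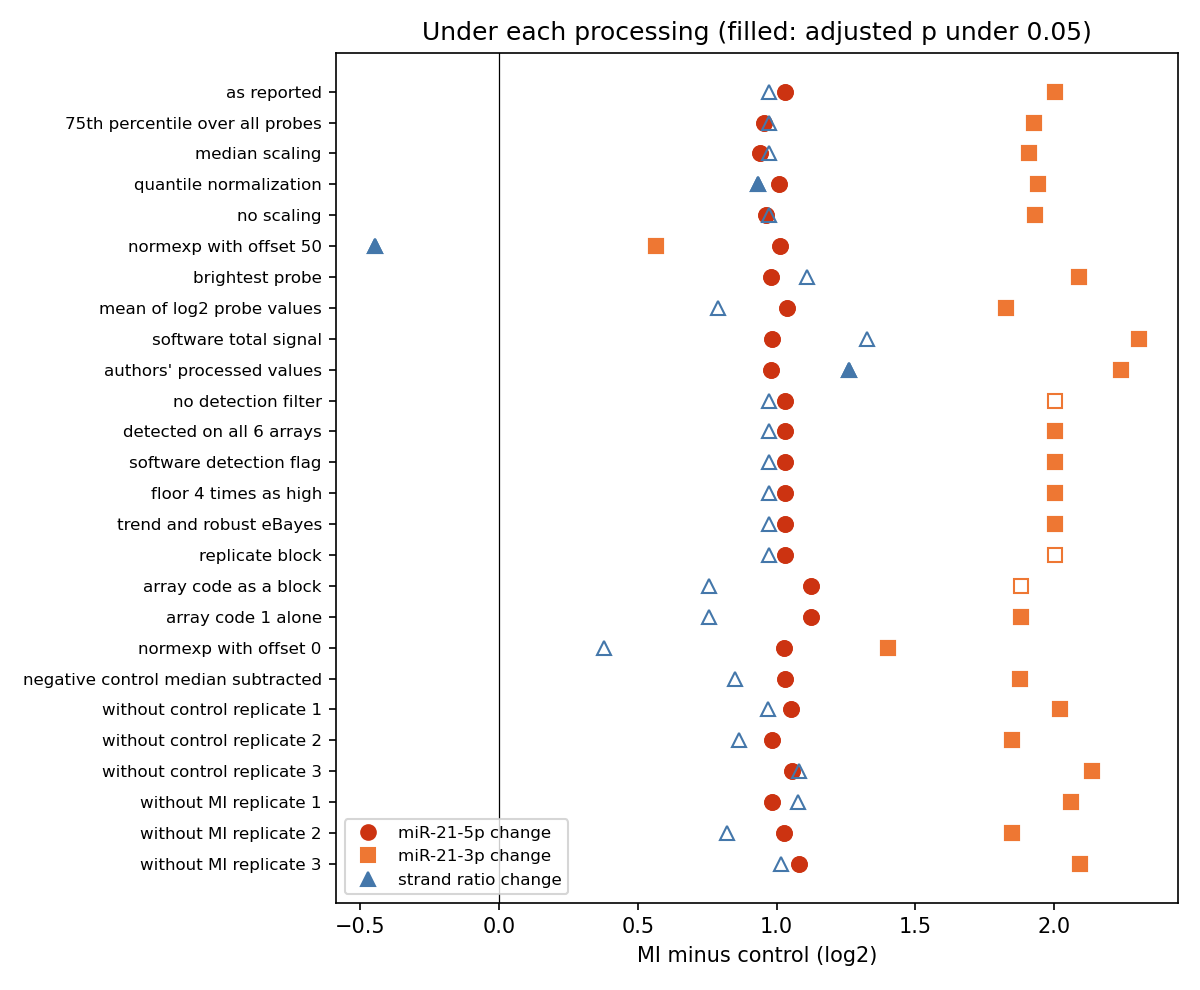
Log2 difference, MI minus control (horizontal axis), of miR-21-5p (circles), miR-21-3p (squares) and their log2 ratio (triangles) under the reported processing and 25 alternatives (rows); filled symbols have a limma adjusted p under 0.05. The guide stays between 0.94 and 1.12, the passenger between 0.56 and 2.31, and the ratio between -0.45 and 1.33.

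The 3 control arrays and MI replicate 1 share array code 1 in the barcode field of the headers, and MI replicates 2 and 3 carry code 2. Within code 1, where a single MI array is set against the controls and assumed to vary as they do, the log2 difference of miR-21-5p was 1.12 and that of miR-21-3p 1.88 (limma adjusted p = 0.0493 for each). With the code as a block they were the same, with limma adjusted p = 0.0233 for the guide and 0.0626 for the passenger, and the ratio stood at 0.76 (0.312). Control replicate 3 was scanned apart from the other arrays. Without it, within a single scan, the differences were 1.06 and 2.14 (limma adjusted p = 0.00805 for each).

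The authors' deposited processed values, on their own log2 scale, gave the same order of groups. MiR-21-5p stood there at 12.56, 12.56 and 12.62 in controls and at 13.73, 13.68 and 13.27 after MI. MiR-21-3p stood at 2.78, 2.94 and 3.18 in controls and at 5.13, 5.52 and 4.97 after MI. The differences of those values were 0.98 and 2.24 (limma adjusted p = 0.0327 and 0.00746), and that of the ratio 1.26 (0.0214), past the threshold.

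MiRNAs of other precursors were ranked by how closely their profile over the 6 arrays followed each strand, as the root mean square difference of log2 values after subtracting each miRNA's control mean. This distance depends largely on how far apart the log2 differences after MI lie, so it adds little to them. Nearest to miR-21-5p was miR-490-5p, at 0.16, with a log2 difference of 1.00 ± 0.11 (SE). It was followed by miR-132-3p, a miRNA transcribed downstream of CREB, at 0.19, by miR-18a-5p of the miR-17-92 cluster, also at 0.19, by miR-222-5p at 0.29 and by miR-877, a mirtron, at 0.35. MiR-21-3p lay at 0.71 from its partner strand, farther than any of these 5, which largely restates the change of the strand ratio. Of the 5, miR-490-5p, miR-132-3p and miR-18a-5p passed the threshold (limma adjusted p = 0.00665, 0.0332 and 0.00356), and miR-222-5p and miR-877 did not (0.178 and 0.195). On the control arrays, 0 of 3 had miR-222-5p well above background, and miR-877 was also not detected on all 6 arrays.

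Nearest to miR-21-3p was miR-146b-5p, a miRNA induced by NF-kB that restrains the same pathway, at 0.28. Its log2 scaled signal was 8.48, 8.42 and 8.52 in controls and 9.95, 10.40 and 10.46 after MI. Its rise of 1.79 ± 0.14 (SE) had a limma adjusted p of 0.00209. The next was miR-223-3p, the main miRNA of neutrophils and other myeloid cells, at 0.51, and miR-222-5p, miR-490-5p and miR-132-3p followed at 0.74, 0.74 and 0.88. MI replicate 1 was the lowest MI array for miR-146b-5p and for miR-223-3p, and the highest for miR-21-5p.

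MiR-146b-5p was also the miRNA on the array with the sequence most like miR-21-3p. Aligned without gaps, 15 of the 22 bases of miR-21-3p matched it, against a median of 8 over 684 other miRNAs on the array with a RefSeq sequence, and 2 of the 684 reached 14 or more. Its relative miR-146a-5p matched at 13. The aligned sequences are shown with matching bases in capitals, first for miR-146b-5p and then for miR-146a-5p.
rno-miR-21-3p: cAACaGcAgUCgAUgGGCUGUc
rno-miR-146b-5p: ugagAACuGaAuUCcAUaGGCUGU
rno-miR-21-3p: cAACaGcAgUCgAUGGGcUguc
rno-miR-146a-5p: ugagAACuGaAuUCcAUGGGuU
The longest run shared with miR-146b-5p is GGCUGU, 6 bases, and 48 of the 684 miRNAs share a run of at least that length with miR-21-3p. MiR-146a-5p stood at 12.68, 12.90 and 12.84 in controls and at 12.51, 12.48 and 12.55 after MI, a log2 difference of -0.29 ± 0.08 (SE; limma adjusted p = 0.194). Over controls, miR-146b-5p varied by an SD of 0.05 and miR-21-3p by 0.29. Whether miR-146b-5p contributes signal to the miR-21-3p probes was not tested. For miR-21-5p the most alike were miR-101a-5p and miR-27b-5p, with 14 of 22 bases.

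Of 10 other miRNAs listed as induced by inflammatory or stress signals, 9 were tested, and 2 passed as higher, miR-146b-5p and miR-132-3p, and 0 as lower, against 1.78% and 0.668% of all tested miRNAs. The call of miR-146b-5p held under all 25 alternatives, and that of miR-132-3p was lost under 13 of 25 (limma adjusted p up to 0.175). The list's median log2 difference was 0.07, beside 0.02 over all tested miRNAs. At an unadjusted p under 0.05 it had 2 members higher and 1 lower, beside 61 of all 449 in either direction (13.6%). The lower member was miR-146a-5p, at -0.29 ± 0.08 (SE; limma adjusted p = 0.194), with all MI arrays below the controls.

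Fibroblasts and leukocytes are known sources of miR-21. Of the fibroblast and smooth muscle list (miR-143, miR-145, miR-199a, miR-214, miR-29, miR-10b and miR-24 strands), 0 of 10 tested members passed in limma, with 0 at an unadjusted p under 0.05 and a median of -0.06. Over all tested miRNAs, 61 of 449 (13.6%) had an unadjusted p under 0.05. Its summed log2 signal lay between 18.26 and 18.38 in controls and between 18.20 and 18.27 after MI. Of the myeloid and pan-leukocyte list, 0 of 3 tested members passed, with 1 at an unadjusted p under 0.05 and a median of 0.21. That member, miR-223-3p, stood at 10.80, 10.89 and 10.95 in controls and at 11.64, 12.84 and 12.51 after MI, a difference of 1.45 ± 0.29 (limma adjusted p = 0.0619). It was 0.76 with the array code as a block (limma adjusted p = 0.219), and it passed without MI replicate 1 (1.79, 0.00256) and with trend and robust eBayes (1.45, 0.0448). MiR-142-3p and miR-142-5p stood at 0.21 ± 0.12 and 0.06 ± 0.12, and the 4th listed member, miR-223-5p, was detected on no array. The summed signal of the list lay between 13.00 and 13.24 in controls and between 13.31 and 13.98 after MI, without overlap. Taken singly, only miR-223-3p lay wholly above the controls after MI, as did 49 of all 449 tested miRNAs (10.9%). The part of myeloid cells in the rise of miR-21 was not tested.

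Among the lymphocyte miRNAs 1 of 4 was called lower and 0 higher. That member, miR-342-5p, stood at -0.47 ± 0.08 (SE; limma adjusted p = 0.0332), but it was well above background on 1 of 3 MI arrays and entered the test only through the controls. Its call was lost under 19 of 24 alternatives and its sign turned under 2. MiR-150-3p went the other way, at 0.20 ± 0.08 (SE), with all MI arrays above the controls, and was not called. MiR-150-5p, the brightest of the list, stood at -0.21 ± 0.09 and miR-342-3p at -0.17 ± 0.07, also not called. In limma 0 of 7 cardiomyocyte, 0 of 2 endothelial and 0 of 3 erythroid miRNAs passed, with medians of -0.07, -0.15 and 0.36. The cardiomyocyte count depended on the processing, since miR-133a-5p, at -0.40 ± 0.08 (SE; limma adjusted p = 0.0619), passed as lower under 6 of 25 alternatives. At an unadjusted p under 0.05 there were 2 cardiomyocyte members, both lower, and 0 endothelial and 0 erythroid members. The lymphocyte list had 1 such member higher and 1 lower. The erythroid members miR-451-5p, miR-144-3p and miR-144-5p stood at 0.36 ± 0.18, 0.35 ± 0.21 and 0.41 ± 0.18, and their summed signal overlapped between the groups (14.18 to 14.69 in controls, 14.51 to 15.00 after MI). The summed signals of the lymphocyte list (12.94 to 13.16 in controls, 12.84 to 12.86 after MI) and of the endothelial list (16.22 to 16.42 and 16.18 to 16.19) were lower on all MI arrays. How many of all tested miRNAs lay wholly below the controls was not counted. Of the endothelial members, miR-126a-3p stood at -0.14 and miR-126a-5p at -0.15 (limma adjusted p = 0.491 and 0.525). With quantile normalization they stood at -0.014 and -0.23. The part of either list in the changes of miR-21 was not tested.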

How the data were processed

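RNA was extracted with TRIzol and labelled with Cy3, per the labels. Per the submitters' processing notes, images were read with version 11.0.1.1 of Agilent Feature Extraction. Per the file headers, spot values are linear intensity values, the processed signal being net of background, and flags are 0 or 1. The authors' deposited processed values are on a log2 scale with equal medians and maxima in all columns; how they were made is not given in the sources used here.

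Outlier spots (8.32% to 9.63% per array) were dropped before averaging each probe. Detection of a probe required more than 50% of its spots to be well above background. Scaling used the 75th percentile over 885 probes that met this on each of the 6 arrays. Probes of a miRNA were summed, and a floor of 5.14 (1% of the percentile) was set before log2. MiRNAs, probes and strand ratios (pairs named alike but for 5p and 3p) were fitted in limma 3.58.1 (R 4.3.3; lmFit, eBayes, group only) where every array of a group (either 1) detected them, with Benjamini-Hochberg adjustment and a threshold of 0.05. Precision is limited by how few arrays there are. The fits were tested on simulated data.

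The members, the 7 lists, the rule for naming miRNAs and the alternatives were chosen with earlier results of these data known. The rule names the members and their probes, miRNAs sharing a seed, the 5 nearest profiles per strand, and list members past the threshold or, up to 3 per list, by smallest p. A few others were named after their values were seen. Normexp without offset, subtraction of negative controls and the arrays of code 1 alone were added after seeing the data. Normexp was run on median signals. Of the 449 tested names, 409 matched a RefSeq mature miRNA.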

Additional observations from a re-analysis of the deposited data

How the results depend on the processing

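The rise of miR-21-5p held its direction and call under all 25 alternatives (0.94 to 1.12, limma adjusted p 0.000629 to 0.0493), and that of miR-21-3p held its direction under all 25 (0.56 to 2.31). The call of miR-21-3p was lost with no detection filter (2.00, limma adjusted p = 0.0543), where more miRNAs were tested, with the array code as a block (1.88, 0.0626) and with the replicate block (2.00, 0.0512). Whether same-numbered samples are paired is not given. The correlations of their deviations were 0.12, -0.04 and 0.11, which cannot decide it with so few samples. The replicate block left 3 miRNAs past the threshold instead of 11. Of the miR-21 probes well above background on all arrays, both guide probes (limma adjusted p = 0.0238 for each) and A_26_P00002013 (0.0486) stayed past it. The strand ratio, 0.97 and not a call as reported, passed with quantile normalization (0.93, 0.0431) and in the authors' values (1.26, 0.0214). It was reversed only by normexp with the offset (-0.45, 0.0234), which shrinks the change of the dim strand, and not by normexp without it (0.38). The limma adjusted p of the ratio ran from 0.0214 to 0.391.

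The number of miRNAs past the threshold was 7 with no scaling, 5 with no detection filter, 6 with the higher floor, 3 with the array code as a block, 4 with code 1 alone and 4 to 10 without single samples. Its split of 8 higher and 3 lower became 5 and 5 with the 75th percentile over all probes or the median; the largest shift of the median change of all miRNAs was to -0.08, with median scaling. Among 24 other miRNAs, 39 of 597 recomputed values lost a call (19 of miR-342-5p, 13 of miR-132-3p, 4 of miR-490-5p and 3 of miR-18a-5p), 9 gained one (6 of miR-133a-5p, 2 of miR-223-3p and 1 of miR-222-5p) and 13 took the opposite sign. MiR-142-5p, 0.06 as reported, stood at -0.015 with the percentile over all probes, -0.032 with median scaling, -0.0094 without scaling, -0.016 in the authors' values, -0.14 with the code as a block or alone, and -0.024 to 0.16 without single samples. MiR-142-3p stood at -0.0098 with the code as a block or alone, miR-342-5p at 0.019 with normexp and the offset and 0.75 in the authors' values, and miR-29c-3p at 0.023 in the authors' values; the cause was not tested. Depth of signal over background limits miR-21-3p in controls.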
